A study of Mus musculus with 4 samples.

Results

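Foxi1, Ascl3, Atp6v1g3, Atp6v0d2, Rcan2 and Cftr are 6 of the 32285 features counted in single CD45-negative cells of the mouse thymus. Their rows were taken by gene symbol from the count matrices of all 4 libraries, and each symbol matched 1 row. The members were chosen by measured values of these same data, namely their counts in the same few cells and the difference between the genotypes, so their detection in shared cells and their levels per genotype are given as a description and without a test.

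Foxi1 encodes a forkhead transcription factor and Ascl3 a basic helix-loop-helix transcription factor, and both are known from ionocytes, rare epithelial cells of the airway, kidney, inner ear and salivary gland that move ions and protons across an epithelium. Such cells rely on the V-ATPase, a proton pump with a membrane sector and a cytosolic sector. Atp6v1g3 encodes a cytosolic-sector subunit and Atp6v0d2 a membrane-sector subunit with restricted tissue distribution. Cftr is a chloride and bicarbonate channel, and Rcan2 is a regulator of the phosphatase calcineurin. In the thymus, some medullary epithelial cells turn on genes of peripheral cell types, and cells that resemble tuft, microfold, ciliated and secretory cells are known among them.

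The cells came from untreated C57BL/6 mice aged 6 months. One group (WT, 2 libraries, labelled mock) was wild type, and the other (Z/Z, 2 libraries) carried the LacZ allele of Foxn1 on both copies, a hypomorphic allele of the transcription factor that thymic epithelial cells (TECs) depend on. The comparison asks how the stroma differs when Foxn1 is reduced. By the protocol, the thymi of several mice were pooled, CD45-positive cells were depleted on beads and the remaining cells were sorted, so a share of cells below is a share of sorted cells, and the protocol gives a range for the thymi pooled but not the number of animals behind each library. Replicate libraries are not stated to come from separate groups of animals, so the spread between them may be technical. On sex the sources disagree (female in the protocol, male in the sample characteristics), and the version of the 3′ kit differs between parts of the sources.

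The 4 libraries held 1192 to 5558 called cells and 8468086 to 50705511 unique molecular identifiers (UMIs, one per captured transcript). After filtering, 9846 cells were kept, and 4256 of these were TECs: WT 1 had 562, WT 2 had 105, Z/Z 1 had 1956 and Z/Z 2 had 1633. TECs of WT were deeper, with a median of 16407.5 and 17836 UMIs per cell, than those of Z/Z, with 6746.5 and 6652. The 2 WT libraries shared 202 called barcodes and the 2 Z/Z libraries shared 249, whereas libraries of different genotype shared 0 to 6. In WT 2, 54 of the 105 TECs had a barcode that was also called in another library. Results are therefore given without such cells where this changes them.

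In the annotation of the mouse genome build GRCm38, Foxi1 (ENSMUSG00000047861) lies on the minus strand at chr11:34204338-34208089 and Ascl3 (ENSMUSG00000035951) on the minus strand at chr7:109727465-109731726. Atp6v1g3 (ENSMUSG00000026394) lies at chr1:138273738-138289462 on the plus strand, Atp6v0d2 (ENSMUSG00000028238) at chr4:19876841-19922605 on the minus strand, Rcan2 (ENSMUSG00000039601) at chr17:43801351-44039516 on the plus strand and Cftr (ENSMUSG00000041301) at chr6:18170687-18322768 on the plus strand. The first 4 overlap no other annotated gene. Rcan2 overlaps the small RNA gene Gm24532 and Cftr the antisense gene Gm15592, each on the opposite strand. Cftr also overlaps the pseudogene Gm15595 on its own strand, so a few of its reads could belong to that feature.

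The promoters of both transcription factors are shown because the 2 genes were found in the same cells. Each runs from 250 bases before to 50 bases after the annotated start, 5′ to 3′ on the strand of the gene, from RefSeq on GRCm38.p6. Capitals mark TGTTTA or its reverse complement TAAACA, the inner part of the forkhead core.
Ascl3, chr7:109731683-109731982, minus strand: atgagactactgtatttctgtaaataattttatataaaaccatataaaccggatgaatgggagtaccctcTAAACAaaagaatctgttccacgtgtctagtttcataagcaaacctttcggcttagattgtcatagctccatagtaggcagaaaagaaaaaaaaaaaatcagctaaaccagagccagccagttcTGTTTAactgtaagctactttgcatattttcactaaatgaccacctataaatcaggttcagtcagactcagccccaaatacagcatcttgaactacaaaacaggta
Foxi1, chr11:34208040-34208339, minus strand: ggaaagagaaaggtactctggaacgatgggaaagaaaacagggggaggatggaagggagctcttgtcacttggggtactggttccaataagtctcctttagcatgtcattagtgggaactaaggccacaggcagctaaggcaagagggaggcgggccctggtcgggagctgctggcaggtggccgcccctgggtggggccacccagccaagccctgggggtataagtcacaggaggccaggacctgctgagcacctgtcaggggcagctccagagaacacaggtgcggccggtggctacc
The longer core TGTTTAC, or GTAAACA on the other strand, was in 0 of the member promoters and in 3.65% of 32851 mouse promoters of the same length. The shorter TGTTTA, which TGTTTAC contains and which was chosen after these sequences had been seen, was in 13.44% of all promoters. Among the members it was in the Ascl3 promoter alone, with 2 copies that begin 180 and 56 bases before the start. RefSeq promoters were matched for 5 of the 6 members, and Atp6v0d2 had no entry. The GC content was 36% for Ascl3, 60.33% for Foxi1, 46.33% for Atp6v1g3 and 71.33% for Cftr, beside a median of 52.67% over all promoters. A match of letters is a description and not evidence of binding.

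The members other than Rcan2 were mainly epithelial. Foxi1 was detected in TECs and in no other lineage, with all 260 of its UMIs in 52 TECs and 0 UMIs in 2798 fibroblasts. TECs held 93.5% of the Ascl3 UMIs, 99.1% of those of Atp6v1g3, 94.4% of those of Atp6v0d2 and 96.8% of those of Cftr. Outside the epithelium, Atp6v0d2 was found in 7 of 301 immune cells (11 UMIs), and Cftr in 15 of 31 mesothelial cells (47 UMIs). Rcan2 was most frequent in mural cells, the contractile cells around vessels. They held 59.5% of its UMIs, and 85.7% of 769 mural cells had at least 1. A further 25.6% of Rcan2 UMIs lay in fibroblasts and 11.1% in TECs, so that most Rcan2 UMIs lay outside the epithelium.

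The levels of the members were then compared between genotypes in the summed UMIs of TECs, in CPM, the usual scaling of a gene's UMIs to the total TEC UMIs of its library. Such sums do not separate fewer cells of a type from less RNA per cell, which cannot be told apart here. For Foxi1, WT 1 had 0.729 CPM (9 UMIs in 4 cells), WT 2 had 0 (0 UMIs in 105 cells), Z/Z 1 had 9.11 (186 UMIs in 31 cells) and Z/Z 2 had 3.55 (65 UMIs in 17 cells). Both Z/Z libraries were above both WT libraries. The log2 fold change, fitted by edgeR on scaled counts, was 3.67 (SE 0.89), and the ratio of the pooled counts was 10.6 with a 95% interval of 5.52 to 23.5. Intervals here and below cover counting error only, not the spread between libraries or animals. Those of the count ratios also take each UMI as independent. Up to 36 Foxi1 UMIs lay in 1 TEC of Z/Z 1, so these intervals are too narrow.

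For Ascl3, WT 1 had 0.0810 CPM (1 UMI), WT 2 had 0, Z/Z 1 had 6.66 (136 UMIs in 39 cells) and Z/Z 2 had 6.78 (124 UMIs in 32 cells). The 2 Z/Z libraries were nearly equal and WT had a single UMI in all, so the ratio of pooled counts, 99.2, has an interval from 17.65 to 3933. The share of TECs with an Ascl3 UMI was 0.178% and 0% for the WT libraries and 1.99% and 1.96% for the Z/Z libraries. In fibroblasts of the same libraries, with median depths of 14353, 14676, 10155.5 and 10401 UMIs, it was 0.334%, 0.524%, 0.560% and 0.264%. The WT share in TECs was thus no higher than the share in fibroblasts, so no WT level of Ascl3 is read from it. The single WT UMI lay in a cell of WT 1 that also had 2 Foxi1, 20 Atp6v1g3, 3 Atp6v0d2 and 1 Rcan2 UMIs. For Foxi1 the fibroblast share was 0% in each library, the largest limit being 1.57% for the 191 fibroblasts of WT 2. Barcodes with at most 100 UMIs, which hold free RNA, had Foxi1 at 0.476 (1 UMI) and 0 CPM for WT. For Z/Z they had it at 2.82 (8 UMIs) and 3.15 (5 UMIs). Ascl3 was at 0.951 (2 UMIs) and 0 CPM in those of WT and at 2.47 (7 UMIs) and 2.52 (4 UMIs) in those of Z/Z. These levels rest on few UMIs, and no difference between genotypes is read from them.

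The 2 V-ATPase members behaved differently from each other. Atp6v0d2 was at 1.30 and 0.826 CPM in the WT libraries and at 6.96 and 4.26 in the Z/Z libraries, and its log2 fold change was 2.43 (SE 0.52). The Z/Z libraries lay above the WT libraries. Atp6v1g3 was at 22.3 and 2.48 CPM in the WT libraries and at 25.6 and 18.7 in the Z/Z libraries, and the groups overlapped. Its log2 fold change was 0.83 (SE 0.75). A single WT 1 cell carried 193 of the 276 Atp6v1g3 UMIs of that library, 69.9%. It held 34147 UMIs and no UMI of any other member. Without it, Atp6v1g3 in WT 1 was at 6.74 CPM, and the groups no longer overlapped.

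Rcan2 was at 6.72 and 5.37 CPM in WT and at 22.7 and 11.9 in Z/Z. Its log2 fold change was 1.63 (SE 0.41), and 0.39 when each cell had been thinned to 2000 UMIs. Cftr went the other way, with 49.5 and 81.8 CPM in WT, 44.97 and 24.4 in Z/Z, and a fitted log2 change of -0.75 (SE 0.39). The gap between the groups was small, and after TMM scaling WT 1 (46.9 CPM) and Z/Z 1 (47.9 CPM) overlapped. In all, 4 members were higher in both Z/Z libraries than in both WT libraries after TMM scaling. Of the 18928 genes tested, 35.0% were higher and 33.1% lower without overlap, and nothing is read from the members' count because they had been picked with these values known.

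**Figure D1:**
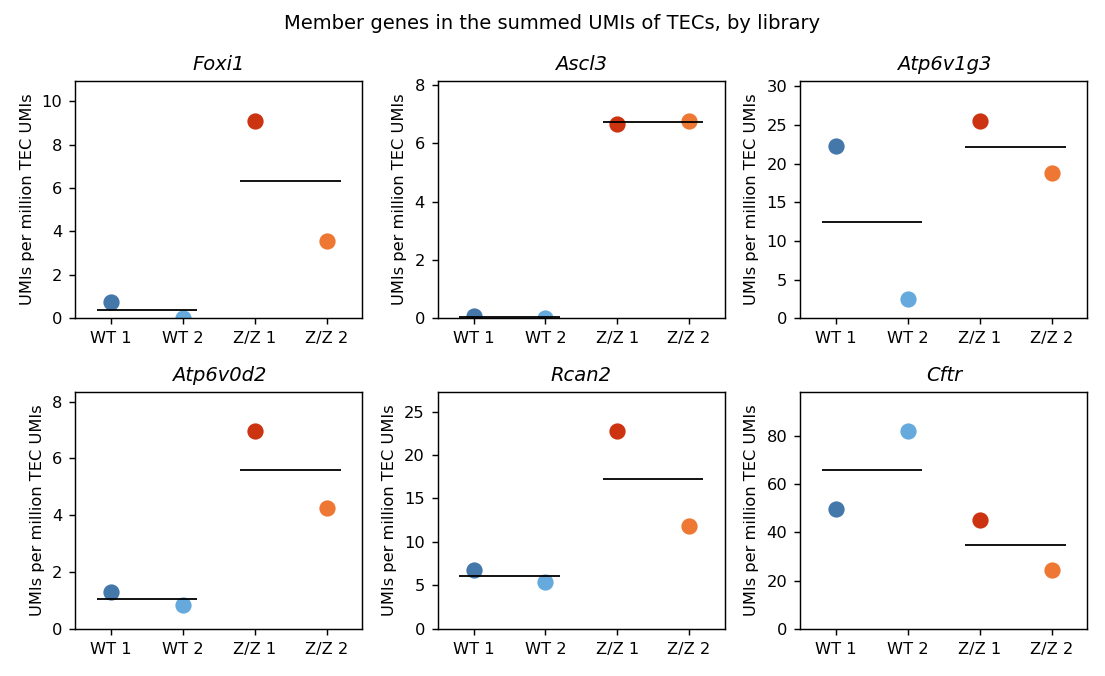
Level of each member in the summed UMIs of TECs, in CPM of TEC UMIs (vertical axes, linear from 0, a scale of their own for each gene). Each point is 1 library and each bar the mean of a group of 2. Foxi1 (9.11 and 3.55 in Z/Z) and Ascl3 (6.66 and 6.78) are near 0 in WT, Atp6v1g3 overlaps between the groups, and Cftr is lower in Z/Z.

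Within Z/Z, the members were detected together. Of 48 Z/Z TECs with a Foxi1 UMI, 62.5% also had an Ascl3 UMI, beside 1.16% of the 3541 TECs without Foxi1. Atp6v0d2 was found in 72.9% of the Foxi1-positive TECs and in 0.480% of the others, Atp6v1g3 in 58.3% and 0.678%, Rcan2 in 70.8% and 3.64%, and Cftr in 68.8% and 5.17%. The Foxi1-positive TECs were deeper, with a median of 21175 UMIs beside 6630, and the part of depth in these shares was not tested. Ascl3 went with the other members less often. It was also found, at 1 UMI per cell, in 0.560% and 0.264% of the fibroblasts of Z/Z 1 and Z/Z 2. The part of such UMIs in the next shares was not tested. Of 71 Z/Z TECs with an Ascl3 UMI, 42.3% had Foxi1, 45.1% Atp6v0d2, 35.2% Atp6v1g3, 49.3% Rcan2 and 46.5% Cftr. The rate ran differently from the side of Cftr, since of 216 Cftr-positive Z/Z TECs 15.3% had Foxi1 and 15.3% had Ascl3.

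A TEC was called co-detecting when it had a UMI of Foxi1 or Ascl3 and UMIs of at least 2 of the 6 members. WT 1 had 3 such cells among 562 TECs (0.534%, with a Clopper-Pearson 95% interval from 0.110% to 1.55%) and WT 2 had 0 of 105, which allows a share of up to 2.86% by the limit of 3 counts and of 3.45% by the Clopper-Pearson bound. Z/Z 1 had 34 of 1956 (1.74%, from 1.21% to 2.42%) and Z/Z 2 had 21 of 1633 (1.29%, from 0.798% to 1.96%). The mean of the WT libraries was 0.267% ± 0.377 (SD, n = 2) and that of the Z/Z libraries 1.51% ± 0.320 (SD, n = 2). Both Z/Z libraries were above both WT libraries, but with 105 TECs in WT 2 a share as high as in Z/Z could not be told from 0. Among kept cells that were not TECs, 1 of 896, 0 of 351, 3 of 2499 and 2 of 1844 met the same definition.

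Because WT cells were deeper, each TEC was also thinned to 2000 UMIs, and the share was averaged over 1000 draws. It was then 0.0819% and 0% for the WT libraries and 0.714% and 0.443% for the Z/Z libraries, which corresponds to 0.443, 0, 13.6 and 6.85 cells. The thinned mean was 0.0409% ± 0.0579 for WT and 0.579% ± 0.192 for Z/Z (SD, n = 2 each), a difference of 0.538 percentage points. Thinning left out 23 WT and 133 Z/Z cells that were shallower. For the 103 WT 2 cells left, a count of 0 allows up to 2.91%, which is above both Z/Z values. With cells that share a barcode left out, the difference was 0.523 points. An exact permutation test of 2 libraries against 2 cannot give a p below 0.333.

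**Figure D2:**
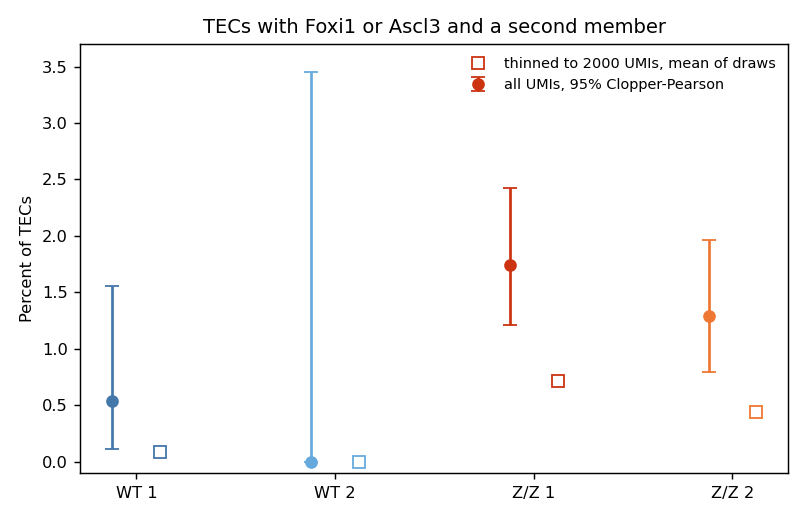
Percent of TECs with a UMI of Foxi1 or Ascl3 and of a second member in each library (vertical axis, linear). Filled points with bars are the shares at full depth with 95% Clopper-Pearson intervals, and open squares are means over draws thinned to 2000 UMIs. The interval of WT 2, with 105 TECs, reaches 3.45% and spans both Z/Z values.

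WT and Z/Z TECs also differed in what else they contained, and this moved with the share. Cluster T3, an mTEC2-like cluster with Aire among its leading genes, held 282 of the 562 TECs of WT 1 and 50 of the 105 of WT 2, but 60 and 82 in Z/Z 1 and Z/Z 2. Outside T3, the co-detecting share was 1 of 280 TECs (0.357%) and 0 of 55 for the WT libraries and 34 of 1896 (1.79%) and 21 of 1551 (1.35%) for the Z/Z libraries. The Clopper-Pearson bound for the 55 WT 2 cells was 6.49%. Of the 3 WT cells, 2 had an Aire UMI, beside 1 of the 55 Z/Z cells.

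The 58 co-detecting TECs were not alike. All 6 members were found in 15 of them, 5 in 20 cells, 4 in 8, 3 in 3 and 2 in 12. Both Foxi1 and Ascl3 were detected in 31 cells, Foxi1 without Ascl3 in 14 and Ascl3 without Foxi1 in 13. The highest count in 1 cell was 36 for Foxi1, 25 for Ascl3, 76 for Atp6v1g3, 17 for Atp6v0d2, 38 for Rcan2 and 114 for Cftr. The 2 transcription factors thus gave few UMIs per cell, with a median of 3 where detected, and Atp6v1g3 gave 15.

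Atp6v1g3 and Cftr did not always go together. Among the 46 TECs with at least 3 members, 22 had 10 or more Atp6v1g3 UMIs and 19 had 10 or more Cftr UMIs, and 8 had both. In 7 cells with 10 or more Cftr UMIs, Atp6v1g3 was at 0, and 13 cells reached 10 UMIs of neither. Foxi1 had a median of 4.5 UMIs in the cells high in Atp6v1g3 and of 4 in those high in Cftr, and Rcan2 a median of 8 and 9. The limit of 10 UMIs was chosen after the counts were seen, so this is a description of these cells.

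**Figure D3:**
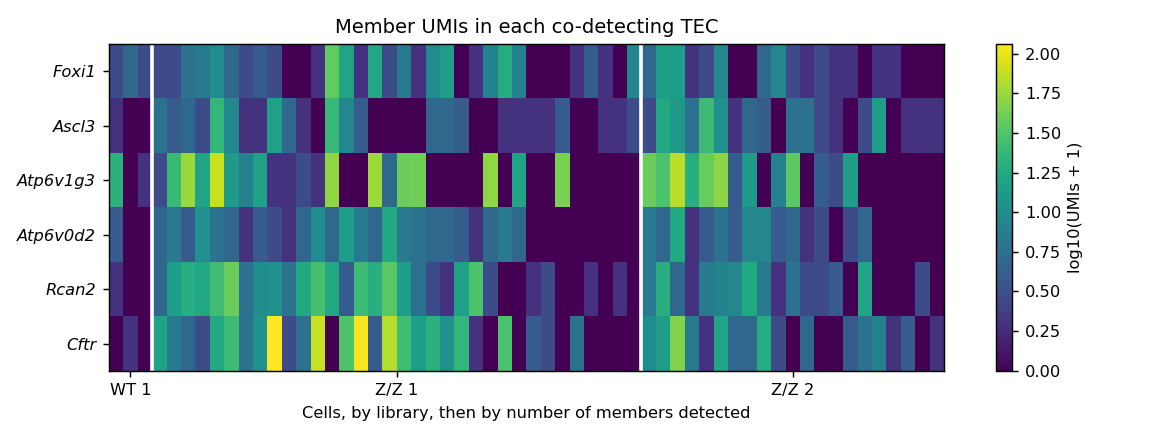
UMIs of the 6 members (rows) in each of the 58 co-detecting TECs (columns, by library and then by the number of members detected). Colour is log10 of UMIs plus 1. The 3 cells at the left are from WT 1, and within Z/Z the cells with the most Cftr, up to 114 UMIs, include several with 0 Atp6v1g3.

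With the 2 Z/Z libraries pooled, these few cells held most of the TEC UMIs of each of the 6 members. They held 96.8% of the Foxi1 UMIs of all Z/Z TECs, 95.03% of Atp6v1g3, 92.7% of Atp6v0d2 and 88.8% of Ascl3. For Rcan2 the share was 67.8%, with 77.2% in Z/Z 1 and 47.9% in Z/Z 2. For Cftr it was 55.6%, with 67.3% in Z/Z 1 and 31.6% in Z/Z 2. In Z/Z 2 alone, most UMIs of these 2 members thus lay in other TECs. All 6 members enter the definition of these cells, Foxi1 and Ascl3 as a condition and the others as the second gene, so their shares follow in part from it. In WT, co-detecting cells held 7.45% of the Atp6v1g3 UMIs, 16.7% of those of Atp6v0d2, 1.04% of those of Rcan2 and 0.124% of those of Cftr. Without the single cell with 193 Atp6v1g3 UMIs, the WT share of Atp6v1g3 was 23.6% (21 of 89 UMIs).

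**Figure D4:**
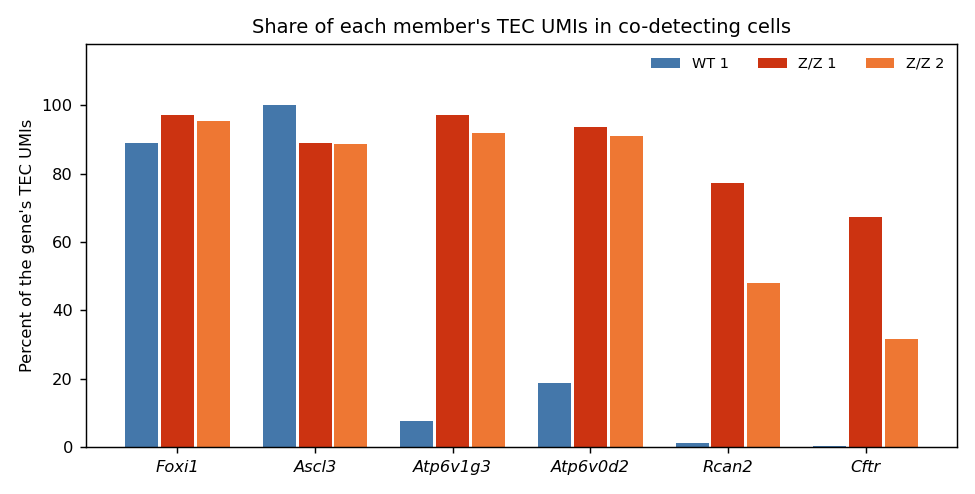
Percent of each member's TEC UMIs that lay in co-detecting cells (vertical axis, linear from 0) in WT 1, Z/Z 1 and Z/Z 2. WT 2 had no co-detecting cell. In Z/Z, the bars of Foxi1, Ascl3, Atp6v1g3 and Atp6v0d2 stand at 88.7% or above, whereas in WT 1 that of Atp6v1g3 is at 7.61% and rests on 276 UMIs, and that of Ascl3 rests on 1 UMI.

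In the pooled UMIs of co-detecting TECs, Atp6v1g3 was at a similar level in both Z/Z libraries. It was at 413 CPM in Z/Z 1 (detected in 20 of 34 cells) and 410 in Z/Z 2 (13 of 21), beside 0.782 and 1.60 in the other TECs. The members define these cells, so the gaps to the other TECs given here follow in part from that. Foxi1 was at 148 and 80.7 CPM beside 0.261 and 0.171, and Ascl3 at 98.7 and 143 CPM beside 0.782 and 0.799. Z/Z 1 was therefore the higher library for Foxi1 and Z/Z 2 for Ascl3. Atp6v0d2 was at 108 and 92.4 CPM beside 0.469 and 0.399. Rcan2 was at 292 and 135 CPM beside 5.52 and 6.45, and Cftr at 504 and 183 CPM beside 15.6 and 17.4. Cftr and Rcan2 UMIs were thus found in other Z/Z TECs too. Barcodes with at most 100 UMIs had Rcan2 at 59.2 and 55.5 CPM and Cftr at 20.8 and 6.31 CPM in Z/Z 1 and Z/Z 2. The Rcan2 level of the other TECs was below that of free RNA in both libraries, and that of Cftr in Z/Z 1 only. The part of free RNA in these levels was not tested.

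Clusters of TECs were made with the members and all listed genes left out, and the co-detecting cells fell mainly into 2 of them. Cluster T14 had 27 cells (1 from WT 1, 18 from Z/Z 1 and 8 from Z/Z 2), every one of them co-detecting, which is 46.6% of the 58. These cells had a median of 15313 UMIs and of 5 members, and none shared a barcode with another library. Their summed member level was 4931 CPM, with Atp6v1g3 at 1419, Cftr at 1342, Rcan2 at 987, Foxi1 at 432, Atp6v0d2 at 411 and Ascl3 at 340 CPM. Rnf152, Adgrf5 and Slc12a2 were among the leading genes that are not members.

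Cluster T4, led by Otog and Fbxo2 and with the aaTEC1 markers at their highest mean (an age-associated epithelial state that the study describes), held another 19 co-detecting cells among its 460, or 32.8% of the 58. They were far deeper than the rest of T4, with a median of 77775 UMIs beside 15992, and 14 of the 19 had a barcode also called in another library. Their summed member level was 538 CPM, below that of T14, although they too had a median of 5 members. In 13 of the 19 an Otog UMI was found, beside 69.6% of the rest of T4 and 2 of the 27 cells of T14. The other 12 cells were spread over further clusters, with a median of 2 members. The high depth, the shared barcodes and the Otog UMIs of the T4 cells moved together, and their part in the detection of the members was not tested.

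Epithelial markers were found in most of these cells. Epcam, Cdh1, Krt8, H2-Aa, Krt5 and Foxn1 had also served to name clusters as TECs, so their detection follows in part from the selection. Of the 58, Epcam was detected in 56, Cdh1 in 56, Krt8 in 54 and H2-Aa, an MHC class II gene, in 42. Krt5, of basal cells, was found in 27 and Foxn1 in 15. The leucocyte gene Ptprc was found in 7. Of macrophages and osteoclasts, in which Atp6v0d2 is also known, Csf1r was found in 1 cell and Lyz2 in 8. The parathyroid regulator Gcm2 was at 0 in all 58 cells, and Pth, its hormone, was found in 7. The endothelial gene Pecam1 was found in 23. At least 2 tuft cell markers were found in 36.4% of the Z/Z co-detecting TECs beside 10.0% of the other Z/Z TECs, 2 microfold markers in 14.5% beside 6.34%, 2 secretory markers in 14.5% beside 3.51%, 2 ciliated markers in 3.64% beside 0.821%, 2 parathyroid markers in 3.64% beside 1.39% and 2 macrophage markers in 5.45% beside 1.27%. In WT, 2 of the 3 co-detecting cells had at least 2 parathyroid markers, beside 4.07% of the other WT TECs. The co-detecting Z/Z cells had a median of 21447 UMIs and the other Z/Z TECs of 6621.5, and the part that this gap had in the shares was not tested either. In CPM, which scales for depth, 0 of 6 tuft markers were higher in the co-detecting cells of both Z/Z libraries and 4 were lower. The counts were 1 and 4 of 6 for microfold, 0 and 3 of 5 for ciliated and 2 and 1 of 6 for secretory markers. They were 1 and 2 of 3 for parathyroid and 0 and 4 of 5 for macrophage markers. Of all genes, 22.5% were higher and 43.9% lower in both.

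Doublet scores were high in these cells, with a median rank at the 91.1 percentile of their library beside 56.1 for other TECs, and 5 further co-detecting cells of Z/Z 1 and 2 of Z/Z 2 had been removed as doublets. Of the 58, 16 had a barcode that was called in another library too. Those 16 had a median of 82938 UMIs, their partners under the same barcode had 521 to 3375 UMIs, 8 of the partners had a UMI of a member, and 0 were co-detecting.

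Cftr had sources in TECs other than the co-detecting cells. It was found in 61.5% of the 39 cells of cluster T13, led by Wfdc2 and Spink5, and in 57.1% of the 21 cells of T15, led by Stxbp5l and Ptprn2. In the mTEC2-like cluster T3 it was found in 29.5% of 474 cells, and in T9 in 18.7% of 166 cells. Of these cells, 2 in T13, 2 in T3, 2 in T9 and 0 in T15 were co-detecting. Among TECs that were not co-detecting, Cftr was detected in 23.0% of those with an Aire UMI and 10.4% of those without in WT 1, and in 28.9% and 5.97% in WT 2. In Z/Z the values were 32.3% and 3.72% in Z/Z 1 and 24.7% and 3.95% in Z/Z 2. The Aire-positive cells were deeper, for example 28405.5 beside 11914 UMIs in WT 1, and in CPM the order was not kept in WT, with Cftr at 48.0 and 51.3 in WT 1 and at 73.5 and 94.8 in WT 2. No order is read from these shares in WT for that reason. In Z/Z, Cftr was at 33.5 CPM with and 13.8 without an Aire UMI in Z/Z 1 and at 40.7 and 14.1 in Z/Z 2.

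Other genes known from ionocytes were then compared between the co-detecting and the other TECs of the 2 Z/Z libraries. This list and those that follow were drawn up with earlier results of these data known. Their counts in co-detecting cells are therefore a description and no independent support. Of the 16 ionocyte genes, 15 were higher in the co-detecting cells of both libraries and Pparg was not. Over all 20156 genes with at least 10 UMIs, 22.5% were higher in both and 43.9% lower in both. The median log2 difference of CPM plus 1 was 2.91 for the list and -0.18 for all genes. Slc12a2, a sodium, potassium and chloride cotransporter, was at 876 and 576 CPM beside 64.1 and 51.4. Coch, a secreted protein of the inner ear, was at 515 and 428 CPM beside 9.02 and 7.59. Tfcp2l1, a transcription factor of kidney collecting duct, was at 493 and 328 CPM beside 63.6 and 50.5. It was detected in 55 of the 55 Z/Z cells and in 24.0% of the other, shallower Z/Z TECs. Dgki, a diacylglycerol kinase, was at 701 and 469.7 CPM beside 71.9 and 54.5.

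Several of the transporters in this list were found mostly in the co-detecting cells of Z/Z. Bsnd, the accessory subunit of the ClC-K chloride channels, had 45 UMIs in them and 0 in the other Z/Z TECs, while in WT it had 12 and 8 UMIs, all in TECs that were not co-detecting. Slc26a4, an anion exchanger of the inner ear and kidney, was at 109 and 37.7 CPM beside 0.782 and 1.2. In WT 1 Slc26a4 had 178 UMIs in TECs that were not co-detecting (14.5 CPM) and 2 UMIs in those that were (36.1 CPM, in 2 of 3 cells). With so few co-detecting cells in WT, most UMIs of a gene lie in other TECs in any case. No WT source is therefore read from these counts.

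Of 22 other subunits of the V-ATPase proton pump with at least 10 UMIs, 15 were higher in the co-detecting cells of both Z/Z libraries and 3 were lower, with a median log2 difference of 0.39. Atp6v1b1, the cytosolic-sector subunit of intercalated cells of the kidney, was 21.6-fold and 30.8-fold higher, and Atp6v1c2, another restricted subunit, 466-fold and 52.1-fold. Atp6v0a4, also restricted, was at 4.89 CPM beside 3.54 in Z/Z 1 and at 0 beside 2.74 in Z/Z 2. Atp6v0c, the ring subunit and the most abundant of the list, was at 436 and 550.4 CPM beside 251 and 341. The lower ones were Atp6v1c1, Atp6v1g2 (0.684 and 0.661 of the level in other TECs) and Atp6v0a1. Within the T14 cells alone, 13 of 22 V-ATPase subunits and 12 of 16 ionocyte genes were higher in both libraries, where 16.0% of all genes were. Without shared barcodes the counts were 14 of 22 and 14 of 16, beside 18.0%, and among the 10 and 10 co-detecting cells with doublet ranks under 90 they were 15 of 22 and 13 of 16, beside 20.2%. In the T4 cells against the rest of T4, the counts were 9 of 22 and 15 of 16, beside 20.8%.

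**Figure D5:**
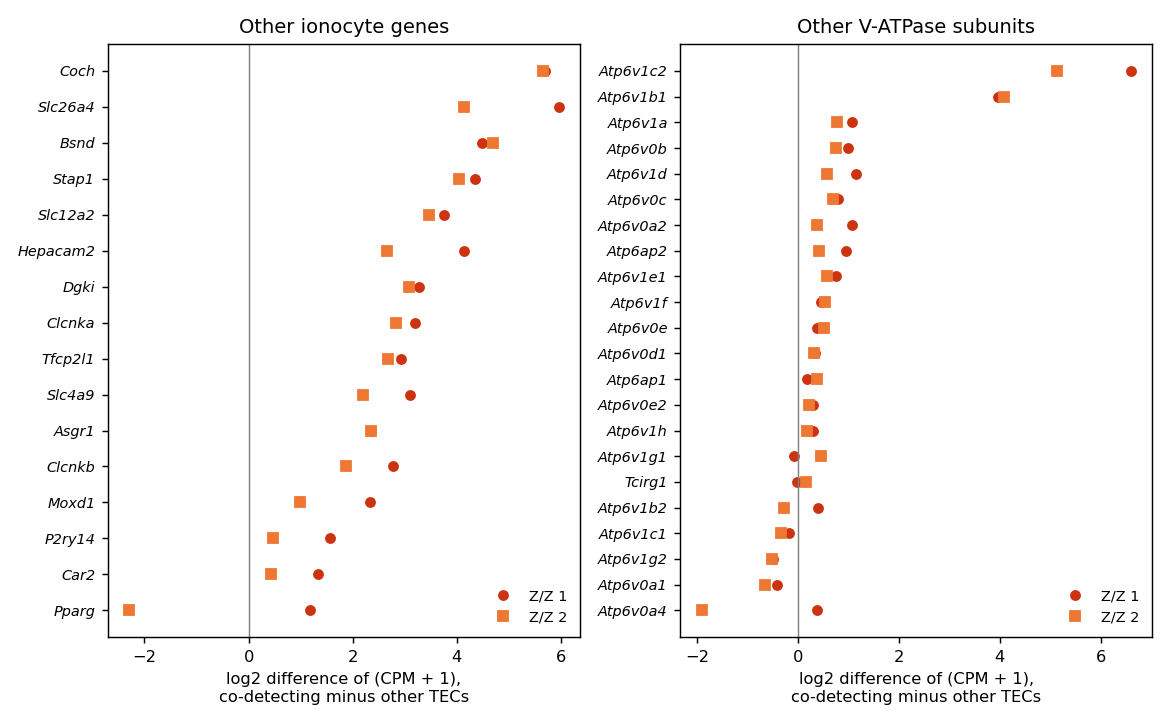
Difference of log2(CPM + 1) between co-detecting and other TECs (horizontal axes) for 16 further ionocyte genes (left) and 22 further V-ATPase subunits (right), with a circle for Z/Z 1 and a square for Z/Z 2. Ionocyte genes lie right of 0 in both libraries except Pparg, and most V-ATPase subunits stay within about 1 unit of 0, apart from Atp6v1c2, Atp6v1b1 and Atp6v0a4 in Z/Z 2.

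Among 12 channels and pumps of epithelial ion transport, 8 were higher in both libraries and 2 lower, where 22.5% and 43.9% of all genes were. The sodium channel subunit Scnn1b was 9.61-fold and 9.22-fold higher. The calcium-activated chloride channel Ano1 was the clearest exception, at 2.45 and 3.90 CPM in co-detecting cells beside 235 and 67.0 in other TECs. Of 10 calcineurin pathway genes, the pathway that Rcan2 regulates, 0 were higher in both and 7 were lower, against the same 22.5% and 43.9%. Among the 7 was the catalytic subunit Ppp3ca at 310 and 251 CPM beside 333 and 294. Of 8 transcription factors that mark other peripheral-type TECs, 0 were higher and 6 were lower in both. Among the 6 was Spib of microfold cells at 3.26 and 3.90 CPM beside 17.6 and 27.5.

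The 10 genes whose pattern was most like that of the members were ranked by the ratio of CPM in co-detecting to other TECs, averaged over the 2 Z/Z libraries, among 9859 genes that had been ranked. Bsnd, Foxi2, a forkhead paralogue of Foxi1, and Adgrf1, an adhesion receptor, had 0 UMIs in other Z/Z TECs, so they are not ordered among themselves or against the rest. Against a floor of 3 counts per library they were at least 140.2-fold, at least 159.8-fold and at least 73.1-fold higher. The other 7, by ratio, were Gm12121 (389.6-fold), Smbd1 (335-fold), Clnk (317-fold), Edn3, which encodes endothelin 3 (300.4-fold), Gm17634 (208-fold), Hspb7 (174-fold) and 4930469K13Rik (155-fold). Clnk was detected in 28 of the 58 cells and Gm12121 in 30. Of the 10, 2 are neighbours of Foxi1. Gm12121, a long noncoding RNA at chr11:34141827-34143421, lies 60.9 kb from it, and 4930469K13Rik, at chr11:33973961-34098554, lies 105.8 kb from it, with 0 coding genes in between for each. 4930469K13Rik overlaps Kcnip1 on the same strand, so reads of this pair may be shared, and Lcp2 on the opposite strand. Gm17634 is antisense to Rnf152, which ranked 12th with a ratio of 86.4.

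The same lists were tested between genotypes in the TEC sums, with edgeR over all 18928 genes. Of these, 10.3% were higher and 12.0% lower in Z/Z at an adjusted p under 0.05. The listed ionocyte genes showed less of a difference than Foxi1 and Ascl3, which had been picked for theirs. TEC sums also take in the other TECs, which in Z/Z 1 held 1221 Tfcp2l1 UMIs beside 605 in co-detecting cells. A change in the co-detecting cells alone could thus be missed. Of the 16 ionocyte genes, Asgr1, a lectin receptor, rose by 2.01 on the log2 scale (SE 0.28, edgeR adjusted p = 0.0117). Hepacam2 fell by 1.15 (SE 0.22, edgeR adjusted p = 0.0218). Asgr1 did not pass when Z/Z 1 was left out, and Hepacam2 did not when WT 1, Z/Z 1 or Z/Z 2 was. The other 14 did not pass, and the median of the list was -0.38. Among the most abundant of them, Slc12a2 had a log2 change of 0.65 (SE 0.25, edgeR adjusted p = 0.113), Tfcp2l1 of 0.70 (SE 0.24, adjusted p = 0.0912) and Dgki of 0.33 (SE 0.28, adjusted p = 0.443).

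V-ATPase subunits were called in both directions. Of 22 tested, 3 rose, namely Atp6v0e2 by 1.01 (SE 0.24, edgeR adjusted p = 0.0384), Atp6v1g1, the widespread form of the G subunit, by 0.77 (SE 0.15, adjusted p = 0.0248) and the accessory protein gene Atp6ap1 by 0.67 (SE 0.18, adjusted p = 0.0485). The 7 that fell were Atp6v1c1, Atp6v0a1, Atp6v1b2, Atp6v1e1, Atp6v0a2, Atp6v1h and Atp6v0e. Atp6v1c1 fell by 1.51 (SE 0.15, edgeR adjusted p = 0.00756), from 126 and 114 CPM in WT to 40.04 and 44.1 in Z/Z after TMM scaling, and Atp6v0a1 fell by 1.34 (SE 0.17, adjusted p = 0.00958). The restricted subunit Atp6v1b1 was at 1.86 (SE 0.70, edgeR adjusted p = 0.113) on the log2 scale and did not pass. The share called, 13.6% higher and 31.8% lower, compares with 10.3% and 12.0% of all genes. With shared barcodes left out, which removes 54 of the 105 TECs of WT 2, edgeR called 0 of the 22 subunits, 0 of the 15 ionocyte genes still tested and 0 genes of the lists below, and 1 gene in all, while 3394 genes had an unadjusted p under 0.05. When Z/Z 1 was left out 1 subunit was called, and when Z/Z 2 was left out 2 were.

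For the next lists the share over all genes is again 10.3% higher and 12.0% lower. In the calcineurin pathway, 3 of 10 genes rose, namely Rcan1 by 1.0 (SE 0.20, edgeR adjusted p = 0.0254), Rcan3 by 0.93 (SE 0.23, adjusted p = 0.0416) and Nfatc4 by 3.02 (SE 0.57, adjusted p = 0.0214), and Nfatc3 fell by 0.87 (SE 0.13, adjusted p = 0.0144). None of the 4 passed when either Z/Z library was left out, and with WT 1 left out 2 did (Rcan1 and Nfatc3). Among the 11 ion transport genes tested, Ano1 rose by 3.75 (SE 0.79, edgeR adjusted p = 0.0281), whereas the chloride and proton exchanger Clcn3 fell by 0.93 (SE 0.22, adjusted p = 0.0363). Ano1 was not called without Z/Z 1, and Clcn3 was not called without WT 2, Z/Z 1 or Z/Z 2. Of 7 transcription factors of other peripheral-type TECs, 0 rose and 4 fell. Insm1 fell by 2.27 (SE 0.18, edgeR adjusted p = 0.00674) and Foxj1 fell by 2.34 (SE 0.32, adjusted p = 0.0111), whereas Pou2f3 fell by 1.68 (SE 0.32, adjusted p = 0.0216) and Spib fell by 1.40 (SE 0.26, adjusted p = 0.0219). Without Z/Z 1 only Insm1 of these was called, and without Z/Z 2 Foxj1 was not.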

How the data were processed

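Per the labels, the authors sequenced 3′ single-cell libraries and made the files with Cell Ranger 7.01, and the submitters' processing notes name GRCm38.p5 and mm10. The deposited matrices hold raw UMI counts per gene and barcode, and 0 columns were left unused. The deposited per-library summaries were not used. Cells with more than 1000 genes and under 20% mitochondrial UMIs were kept, limits that the study applied by cluster. Scrublet's automatic threshold marked 97 cells (0.947%), so the 3.9% with the highest scores per library, 399 cells, were removed after the stated multiplet rate. The 94 features for ribosomal proteins and haemoglobins were removed. Cells were clustered in scanpy 1.11.5 with leidenalg 0.10.2 (3500 variable genes, 35 components, 45 for TECs, 20 neighbours, resolution 1) with 154 listed genes held out and without batch correction. Lineages and classes were named from marker lists, so names are rebuilt and may differ from the study's. UMIs were summed per library over TECs and compared with edgeR 4.0.16 (R 4.3.3, limma 3.58.1; quasi-likelihood F test, TMM, filterByExpr, two-sided, Benjamini-Hochberg over 18928 genes). The script was tested on simulated data. All 6 members passed the filter, Ascl3 through Z/Z alone and Foxi1 through Z/Z and 1 WT library. DESeq2 1.42.0 was an alternative. The study's rank-sum tests over cells were not used, since libraries are the replicates. The members and lists were chosen with earlier results of these data known. Named were the members, list genes that passed (1 is not reported here), the 3 of a list with most UMIs, and the 10 genes with the highest ratio in co-detecting cells. Further list genes given for co-detecting cells were chosen after their values were seen. Total UMIs per library ranged from 8468086 to 50705511. Same-numbered libraries of the 2 groups did not deviate together (r = -0.0876 over 18928 genes), so the numbers were not treated as pairs.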

Additional observations from a re-analysis of the deposited data

How the results depend on the processing

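The difference in the co-detecting share of TECs, 0.538 percentage points after thinning to 2000 UMIs, kept its direction in all 16 alternatives run. It was 1.25 with no thinning, 0.937 at 4000 UMIs, 0.147 when both Foxi1 and Ascl3 were required, 0.389 for any Foxi1 UMI, 0.256 as a share of all kept cells, 0.683 among cells with an Epcam UMI and 0.748 without the aaTEC2-like cluster, the last chosen after seeing the data. Leaving out 1 library gave 0.402 to 0.673. The 10 calls among other V-ATPase subunits became 6 in cells with an Epcam UMI, 6 in thinned sums, 5 without the aaTEC2-like cluster, 0 without shared barcodes and 1 to 8 with 1 library left out (1 without Z/Z 1 and 2 without Z/Z 2). The 2 calls among other ionocyte genes became 0 without shared barcodes, 1 in thinned sums, 5 with no filter on low counts and 0 to 4 with 1 library left out (4 without WT 2, 0 without Z/Z 1, 1 without Z/Z 2). The causes were not tested. With 1 library in an arm, it is assumed to vary like the others. The replicate block gave 4 V-ATPase calls, 2 ionocyte calls and 1 of the 4 calcineurin calls, and over all genes 1184 higher and 1558 lower in place of 1946 and 2278; the libraries share only a number, so this is no paired design. The median log2 fold change of the members, 2.03, stayed between 1.59 and 2.42, with no value in thinned sums, where Foxi1, Ascl3 and Atp6v0d2 failed the filter, or without WT 1, where no WT UMI of Foxi1 or Ascl3 was left. Of single members, Atp6v1g3 was at 3.28 without WT 1, Rcan2 at 0.39 in thinned sums and 2.20 without shared barcodes, and Cftr at -0.37 under 10% mitochondrial UMIs and -1.44 without shared barcodes. With 3 co-detecting cells in WT, depth and cell number limit every WT value.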
